A study of Rattus norvegicus with 6 samples.

Results

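Mitotic gene expression was examined in RNA of glands along the pancreatic ducts, in wild-type rats and HIP rats, using 9 genes that serve as markers of dividing cells. They are Cdk1, Ccnb2, Plk1, Aurka, Aurkb, Birc5, Cenpf, Top2a and Mki67, out of 15675 gene symbols in the tables. A further gene of this set of 10, Bub1b, was not analysed here. The genes were selected on their measured levels in the HIP libraries, because several had no read in 1 HIP library and full levels in another, so their difference between the groups is given as a description without a test.

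The glands are small pouches that open into the larger ducts. They were recognised by morphology, cut out by laser and sequenced as total RNA in 6 libraries. The 3 wild-type libraries (WT26, WT1 and WT4) came from Sprague-Dawley rats, and the 3 HIP libraries (HIP30, HIP2 and HIP3) from pre-diabetic rats of the same strain with a human islet amyloid polypeptide transgene. It is driven in beta cells by an insulin promoter, and whether gland cells expressed it was not tested. Numbers in the library names come from their titles. Values for wild type follow the order WT26, WT1, WT4 and values for HIP the order HIP30, HIP2, HIP3. The sources used here give neither the age of the rats nor whether each library came from its own rat, so the spread between libraries may be technical. Levels are given as CPM, the usual unit of reads relative to the library total, after scaling between libraries, and 1 read was worth 0.0596 to 0.0614 CPM. A count of 0 reads allows a level of up to 0.179 to 0.184 CPM (3 reads), which covers counting error only. In such bulk RNA fewer dividing cells and less of a transcript per cell cannot be told apart.

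Cells enter mitosis when CDK1, bound to a B-type cyclin, is activated. Polo-like and Aurora kinases then build the spindle and control the attachment of chromosomes to it, while condensation factors and topoisomerase II shape the chromosomes. Most of these genes are silent in resting cells and are switched on late in the cycle. Their promoters often carry CCAAT boxes, which bind NF-Y, and a cell cycle homology region with the core TTTGAA, through which the DREAM and MuvB complexes act. Adult duct epithelium normally divides slowly.

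The 250 bases before the start of each gene were read from the RefSeq promoter table (build GRCr8), which held 8 of the 9. Aurkb was not matched. Both strands were searched for the CCAAT box. They were also searched for the homology region core as TTTGAA or in its variant form TTTAAA, a palindrome. CCAAT was present in 7 of 8 promoters against 34.0% of 33469 promoters of the same length, and 5 of 8 held at least 3 copies against 2.52%. TTTGAA was present in 5 of 8 (16.2% of all promoters) and TTTAAA in 3 of 8 (12.3%), so that all 8 held 1 or the other, against 25.4%. The shares for at least 3 copies and for either core were not in the plan. These matches describe letters and do not show binding, and a link between motifs and levels was not tested. Shown here are Ccnb2 and Mki67, which had no read in HIP30, and Cdk1 and Plk1, which kept reads there. They lie at chr8:79981659-79981908 (minus strand), chr1:199952594-199952843 (minus strand), chr20:19265043-19265292 (plus strand) and chr1:186147408-186147657 (plus strand). Each is written 5′ to 3′ along the gene and ends at the base before the start; capitals mark the 3 motifs, with CCAAT on the other strand appearing as ATTGG.
Ccnb2: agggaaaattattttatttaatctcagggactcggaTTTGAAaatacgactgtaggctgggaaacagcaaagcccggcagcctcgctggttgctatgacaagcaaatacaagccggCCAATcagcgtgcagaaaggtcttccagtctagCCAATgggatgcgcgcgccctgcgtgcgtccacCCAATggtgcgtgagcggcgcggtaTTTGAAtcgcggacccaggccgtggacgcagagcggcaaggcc
Mki67: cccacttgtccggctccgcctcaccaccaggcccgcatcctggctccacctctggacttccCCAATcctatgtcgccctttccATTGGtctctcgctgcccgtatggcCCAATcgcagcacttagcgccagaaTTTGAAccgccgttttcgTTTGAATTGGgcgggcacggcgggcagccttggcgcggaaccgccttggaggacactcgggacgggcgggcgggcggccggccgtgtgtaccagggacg
Cdk1: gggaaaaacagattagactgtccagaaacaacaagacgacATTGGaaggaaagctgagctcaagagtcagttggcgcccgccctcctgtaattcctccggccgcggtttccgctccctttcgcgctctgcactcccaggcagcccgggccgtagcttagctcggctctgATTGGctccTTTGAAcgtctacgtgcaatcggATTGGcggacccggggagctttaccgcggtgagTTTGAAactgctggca
Plk1: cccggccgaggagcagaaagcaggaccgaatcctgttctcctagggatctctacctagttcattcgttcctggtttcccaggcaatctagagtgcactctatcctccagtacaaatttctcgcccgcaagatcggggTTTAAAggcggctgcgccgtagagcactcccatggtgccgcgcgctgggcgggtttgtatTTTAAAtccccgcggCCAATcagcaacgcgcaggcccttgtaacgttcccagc
In Ccnb2, CCAAT began 134, 101 and 68 bases before the start and TTTGAA 43 bases before it, with a further TTTGAA at 214. Mki67 held 4 CCAAT matches and TTTGAA at 117 and 99 bases, the latter overlapping an ATTGG by 1 base. Cdk1 carried CCAAT at 210, 81 and 49 bases and TTTGAA at 72 and 16. Plk1 had a single CCAAT at 38 bases, TTTAAA at 113 and 53 bases and no TTTGAA, and Aurka a single TTTAAA at 32 bases and no CCAAT. Of the 5 matched genes without a read in HIP30, Ccnb2, Mki67, Top2a and Cenpf held 3 or 4 CCAAT and Birc5 held 1, and of the 3 genes that kept reads Cdk1 held 3, Plk1 1 and Aurka 0.

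The libraries held 15141136 to 17574682 reads on the listed genes and were rich in transcripts of epithelium, with Krt19, a duct keratin, between 1514 and 7324 CPM. Over 12102 genes the median level of a gene in HIP30, HIP2 and HIP3 was 100.3%, 98.3% and 97.9% of its wild-type mean. HIP30 and WT26 stood apart in that some genes with high levels elsewhere had no read there, as described further on. Results that rest on HIP30 are given with and without it.

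The CDK1 and cyclin B2 pair drives entry into mitosis. Cdk1, the kinase, stood at 77.6, 56.3 and 38.2 CPM in wild type and at 3.71, 15.2 and 55.02 CPM in HIP. HIP30 and HIP2 lay below each wild-type library, whereas HIP3 lay between WT4 and WT1. The HIP30 level rests on 61 reads, with an exact Poisson 95% interval of 2.84 to 4.76 CPM that covers counting error only. Ccnb2, the cyclin, stood at 23.8, 31.6 and 26.7 CPM in the wild-type libraries, against 0, 6.41 and 27.4 CPM in HIP. No read of Ccnb2 was found in HIP30, at least 150.1-fold below the wild-type mean of 27.4 ± 3.97 CPM (SD, n = 3).

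Plk1 and Aurka encode kinases that ripen the centrosomes and build the spindle. Plk1 varied least of the 9 genes among the HIP libraries. Its levels were 58.7, 80.6 and 52.04 CPM in wild type and 33.98, 37.2 and 64.1 CPM in HIP. HIP30 thus retained 53.3% and HIP2 58.3% of the wild-type mean of Plk1, and the 559 reads in HIP30 set it apart from the genes at 0. Aurka, Aurora kinase A, stood at 23.8, 24.3 and 15.7 CPM in wild type and 3.16, 7.51 and 15.9 CPM in HIP. The HIP30 level of Aurka, from 52 reads, was 14.9% of the wild-type mean. HIP3 lay beside WT4, the lowest wild-type library, and its order against WT4 turned with library totals in place of the scaling factors, where Aurka was at 15.5 CPM in HIP3 and 16.4 CPM in WT4.

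Aurkb and Birc5 encode the kinase and the survivin subunit of the chromosomal passenger complex, which corrects faulty attachments and guides cytokinesis. Aurkb stood at 48.5, 73.9 and 41.7 CPM in wild type and at 0, 6.47 and 57.04 CPM in HIP. Birc5 stood at 8.05, 14.7 and 14.1 CPM in wild type and at 0, 1.89 and 9.93 CPM in HIP. Both genes were without a read in HIP30, which put Aurkb at least 300.01-fold and Birc5 at least 67.4-fold below its wild-type mean. Birc5 in HIP2 rests on 31 reads (exact Poisson 95% interval 1.29 to 2.69 CPM), and its HIP3 level lay between WT26 and WT4. Other subunits of the complex, named after their values were seen, kept reads in HIP30. Incenp, the scaffold, was at 8.02 CPM in HIP30, 11.5% of its wild-type mean, and Cdca8, borealin, at 7.17 CPM, 17.9%.

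Cenpf, Top2a and Mki67 encode a kinetochore protein, the topoisomerase that untangles sister chromatids and the Ki-67 antigen that coats mitotic chromosomes. Outside HIP30 they had more reads than the other 6 genes, which sets no order of expression since transcript lengths differ. Cenpf stood at 361, 647 and 449 CPM in wild type and at 0, 78.5 and 508 CPM in HIP. Top2a stood at 308, 483 and 250.2 CPM in wild type and at 0, 42.98 and 393 CPM in the HIP libraries in that order. Mki67 had 13227, 16766 and 11601 reads in the wild-type libraries, 2179 in HIP2 and 19247 in HIP3, but 0 in HIP30. HIP30 therefore lay at least 4613-fold below the wild-type mean for Mki67, 2664-fold for Cenpf and 1903-fold for Top2a. Mki67 was the gene of the 9 whose HIP3 level, 1179 CPM, lay above the highest wild-type level, 1029.7 CPM.

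**Figure D1:**
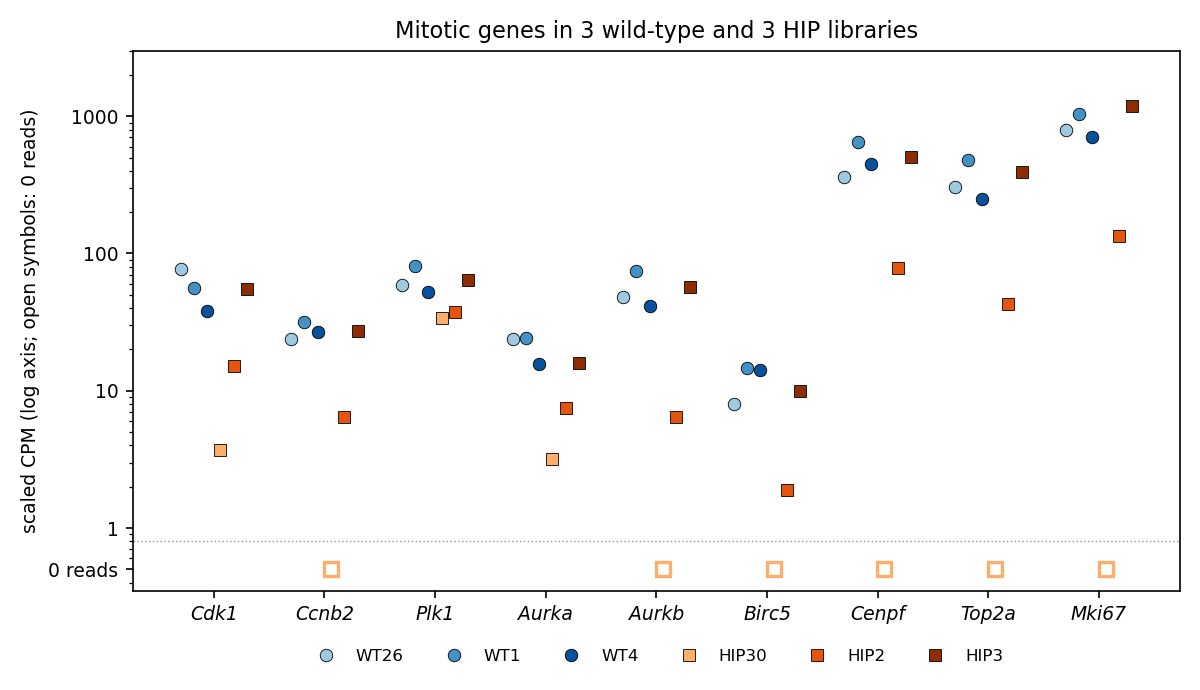
Level of each of the 9 genes in the 3 wild-type (circles) and 3 HIP (squares) libraries, in scaled CPM on a log axis; open squares mark 0 reads. HIP30 had no read for 6 genes, HIP2 lay below the 3 wild-type libraries for all 9, and HIP3 lay among them for 8.

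Across the 9 genes the HIP libraries held a fixed order, with HIP30 lowest, HIP2 next and HIP3 highest. HIP30 had no read for 6 genes and kept reads for 3. HIP2 lay below every wild-type library for 9 of 9 genes, at a median of 16.2% of the wild-type mean and a range from 11.8% for Aurkb to 58.3% for Plk1. Plk1, Aurka, Cdk1 and Ccnb2 kept the largest shares in HIP2, at 58.3%, 35.3%, 26.5% and 23.4%, and the other 5 genes lay between 11.8% and 16.2%. The 3 genes that kept reads in HIP30 were the 3 with the largest shares in HIP2. In HIP3 the levels ran from 74.6% of the wild-type mean for Aurka to 140.2% for Mki67, with a median of 100.5%. Within the wild-type group WT1 was highest for 8 of 9 genes, Cdk1 being highest in WT26. The wild-type coefficient of variation ran from 14.5% for Ccnb2 to 35.01% for Top2a with a median of 30.04%, beside a median of 20.7% over the 8534 genes with a wild-type mean at least that of Birc5, the lowest of the 9.

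**Figure D2:**
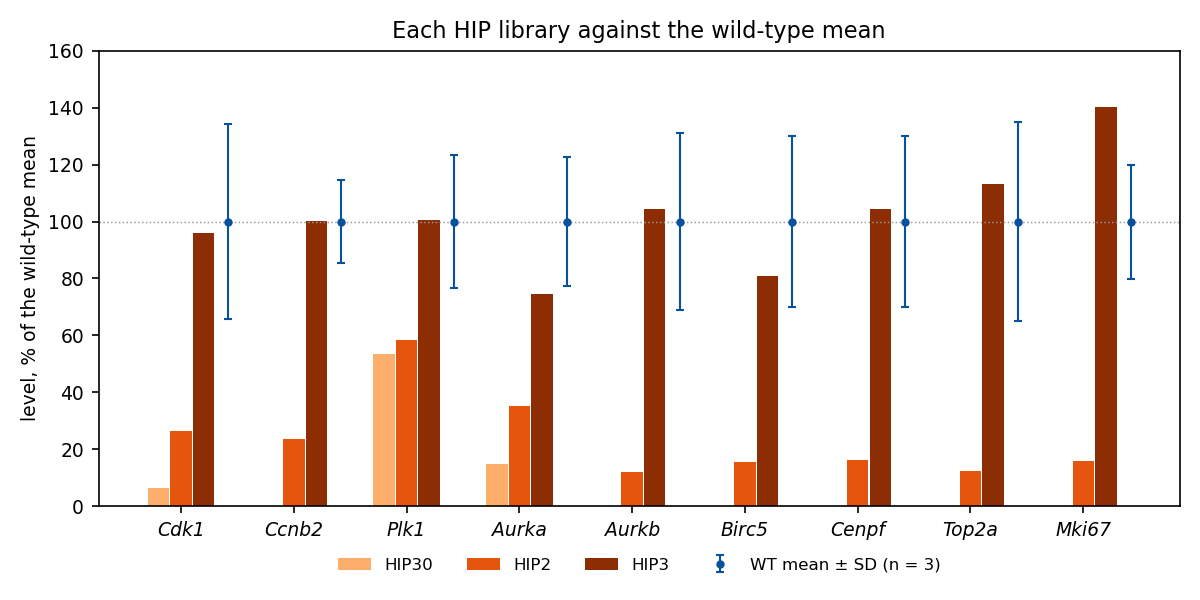
Level in each HIP library as a percentage of the wild-type mean, for each of the 9 genes, with bars from 0; blue points with whiskers are the wild-type mean ± SD (n = 3). Bars are missing where HIP30 had 0 reads, and Plk1 is the gene with the smallest differences between the HIP libraries.

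Each of the 9 genes had a lower mean log2 level in HIP, with HIP3 among or above the wild-type libraries throughout. The log2 difference, HIP minus wild type on log2 of CPM plus 0.122, had a median of -3.29 over the 9 genes, against 0.01 over all 12102 genes, and ran from -4.96 for Mki67 (standard error 2.83) to -0.53 for Plk1 (0.30). For Aurka it was -1.51 (0.56), for Cdk1 -1.90 (0.84), for Birc5 -3.15 (1.39) and for Ccnb2 -3.29 (1.69). Aurkb, Top2a and Cenpf had differences of -3.89, -4.71 and -4.80, with standard errors of 1.87, 2.47 and 2.59. Where HIP30 is at 0, the size of these values depends on the added 0.122 CPM. The median was -1.07 without HIP30 and -4.94 without HIP3, and all 9 genes stayed negative with each library left out in turn. The groups overlapped for each of the 9 genes, so that in 0 of 9 all HIP libraries lay below all wild-type libraries, beside 4.27% of the 12102 genes. The order HIP30 below HIP2, HIP2 below all wild-type libraries and HIP3 at or above the lowest of them held for 9 of 9 genes and for 9.61% of the 12102 genes; it is the pattern by which the genes were chosen.

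The fit over all genes called 0 of 12102 genes, 0%, in either direction (limma, Benjamini-Hochberg adjusted p under 0.05, smallest adjusted p = 0.691). Without adjustment, p lay under 0.05 for 792 genes by limma and for 914 by limma-voom, and limma-voom also called 0 after adjustment.

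Genes whose level ran most like that of the 9 over the 6 libraries were ranked by the root mean square distance between centred log2 profiles, among 9988 other genes with a mean of at least 5 CPM. The nearest 8 were Plk4, Spc25, Gtse1, Casc5, Dsn1, Cenpi, Mcm5 and LOC688459, at distances of 0.14 to 0.26 on the log2 scale. Plk4, the kinase that starts centriole duplication, stood at 44.2, 64.2 and 34.5 CPM in wild type and had 2, 176 and 826 reads in HIP30, HIP2 and HIP3. Spc25, an NDC80 complex subunit, also had 2 reads in HIP30, against 657, 880 and 408 in wild type, and Mcm5, a subunit of the replicative helicase, had 1 against 823, 714 and 465. The other 5 had no read in HIP30. Casc5 and Dsn1 encode parts of the outer kinetochore and Cenpi a part of the inner one. Of the nearest 50 genes 30 stood in the lists of cell cycle genes used here, 60% against 1.76% of the 9988 genes compared, and 32 did when genes were ranked by Pearson r. Both the 9 genes and the lists were chosen with earlier results of these data known, so these shares are a description.

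Other genes of the cell cycle were described through 9 lists from textbook roles, chosen with earlier results of these data known, with the 9 genes left out of each. They held 183 different tested genes, of which 0 were called in either direction. An unadjusted p under 0.05 (limma) was found for 30 of the 183, beside 792 of all 12102 genes. The log2 difference between HIP and wild type was negative for 167 of the 183, 91.3%, against 48.9% of all 12102 genes, with a median of -1.35 against 0.01. Without HIP30 the medians of the 9 lists ran from -1.24, for anaphase and cytokinesis, to -0.07, for transcription factors. In HIP30, 50 of the 183 had no read, and in the other 5 libraries each had at least 1.

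The mitotic lists lay lowest in HIP30. Of 23 kinases, kinesins and spindle proteins 22 were negative and 13 had no read in HIP30. Among them Kif11, the motor that separates the spindle poles, stood at 136, 207 and 116 CPM in wild type and at 0, 23.02 and 178 CPM in HIP. Stmn1, which destabilises microtubules, kept 11.1 CPM in HIP30 against 146.5 ± 54.1 CPM in wild type. Numa1, which anchors spindle poles and has roles in the resting nucleus, stood at 357, 369 and 341 CPM in the HIP libraries against 348 ± 47.1 CPM. All 19 genes of anaphase and cytokinesis were negative, 12 of them with no read in HIP30. Prc1, a bundler of midzone microtubules, and Arhgap11a had no read there, against wild-type means of 147 ± 53.7 and 132 ± 36.3 CPM. Kif23, a kinesin of the midbody, kept 57.8 CPM. The median log2 differences of these lists were -3.59 and -2.96.

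All 22 genes of the centromere and kinetochore were negative, with a median of -2.21 and 9 at 0 in HIP30. Hjurp, the chaperone of the centromeric histone, stood at 40.1, 52.7 and 62.2 CPM in HIP against 58.4 ± 14.01 CPM and differed by -0.17. Of 13 genes around CDK1 and cyclin B 12 were negative, with a median of -1.66. Ccna2, cyclin A, stood at 95.3, 135 and 76.6 CPM in wild type and at 0, 19.6 and 109 CPM in HIP. Wee1 and Pkmyt1, the kinases that hold CDK1 inactive, kept 52.9 and 24.2 CPM in HIP30. Of 12 passenger and checkpoint genes 11 were negative, with a median of -1.31. Bub1, a checkpoint kinase, had no read in HIP30 against 108 ± 45.6 CPM in wild type, Bub3, its partner, stood at 69.7 CPM, and Zwint, a kinetochore linker, was at 77.7, 70.5 and 59.4 CPM in the HIP libraries against 43.3 to 57.7 CPM in wild type.

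The other 4 lists had higher median levels in HIP30 and HIP2 than the mitotic lists above, with members that differed widely. For 45 replication genes the median level was 22.3% of the wild-type mean in HIP30, 37.1% in HIP2 and 95.4% in HIP3, and 43 differences were negative. Pcna, the sliding clamp of DNA polymerases, stood at 26.4, 65.8 and 183 CPM in HIP against 189 ± 63.4 CPM, and Lig1 and Dnmt1, a DNA ligase and the maintenance methyltransferase, at 68.7 and 63.3 CPM in HIP30 against 149.7 ± 36.6 and 168 ± 40.4 CPM. For 14 genes of chromosome structure the medians were 57.9%, 84.8% and 107.2%, with the cohesin subunits Smc1a, Smc3 and Rad21 at 227, 198 and 175 CPM in HIP30. Other members of that list, named after their values were seen, were far lower there: the condensin subunits Smc4 and Smc2 stood at 4.03% and 23.4% of the wild-type mean, Hmgb2, a chromatin protein, at 10.3%, and Cdca5, which protects cohesion, had no read. For 18 transcription factors and their partners the medians were 61.4%, 76.2% and 101.9%. Rbl2, a pocket protein of the DREAM complex, stood at 182, 184 and 160.2 CPM in the HIP libraries against 178 ± 6.72 CPM, and Rb1 and Myc differed by -0.42 and -0.33.

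For 19 genes of entry into and exit from G1 the medians were 65.5%, 73.2% and 99.2%, and 15 differences were negative. Ccnd2, a D-type cyclin, followed the mitotic pattern, at 502, 578 and 239.7 CPM in wild type and 14.6, 120.2 and 473 CPM in HIP. Ccnd1, another D-type cyclin, varied less, at 240.1, 259.9 and 514 CPM in HIP against 497 ± 172 CPM. Btg1, an antiproliferative gene, stood at 414, 329 and 300.3 CPM in the HIP libraries, each above the highest wild-type level of 281 CPM. Of the 183 genes 3 lay higher in all HIP libraries than in all wild-type libraries (Btg1, Zwint and Nfya) beside 5.27% of all genes, and 8 lay lower (Asf1b, Cdc25c, Cdca5, Cdkn1a, Nsl1, Rpa2, Rrm2 and Spag5) beside 4.27%. Nfya and these 8 were named after their values were seen. None of the genes named from the lists passed the test over all genes (limma, adjusted p = 0.691 or above).

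**Figure D3:**
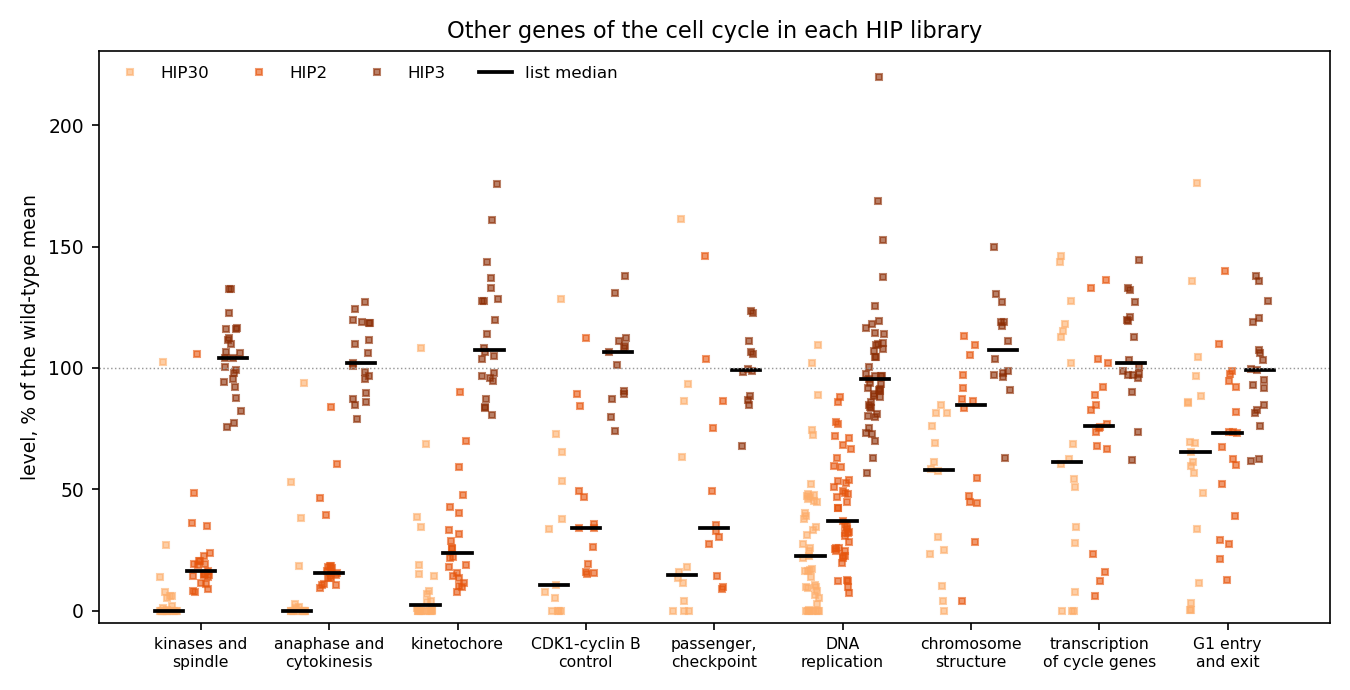
Level of each tested gene of the 9 cell cycle lists in HIP30, HIP2 and HIP3, as a percentage of its wild-type mean; points are genes and black lines are list medians. The HIP30 medians are 0% for kinases and spindle and for anaphase and cytokinesis and 65.5% for G1 genes, while the HIP3 medians lie between 95.4% and 107.4%.

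Reads at 0 in 1 library with high levels elsewhere were not limited to mitotic genes. Of 9959 genes that averaged 5 CPM or more over the other 5 libraries, 126, or 1.27%, had no read in HIP30. They comprised 6 of the 9 genes described here, which were chosen for it, 48 of 178 genes of the cell cycle lists at that level, 27.0%, and 72 other genes. Among those 72, named after their values were seen, Cd59, a complement regulator, stood at 1941 to 4592 CPM in wild type and 753 and 4079 CPM in HIP2 and HIP3. Fn1, which encodes fibronectin, stood at 783 to 3924 CPM in wild type and 323 and 1570.0 CPM in HIP2 and HIP3. In WT26, 92 genes were at 0 by the same measure, none of them from the cell cycle lists or the 9 genes. Markers of islet cells made up 11 of these 92 and 4 of the 126 in HIP30, with Ins1 and Ins2 in both. WT1, WT4, HIP2 and HIP3 had 0 such genes.

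**Figure D4:**
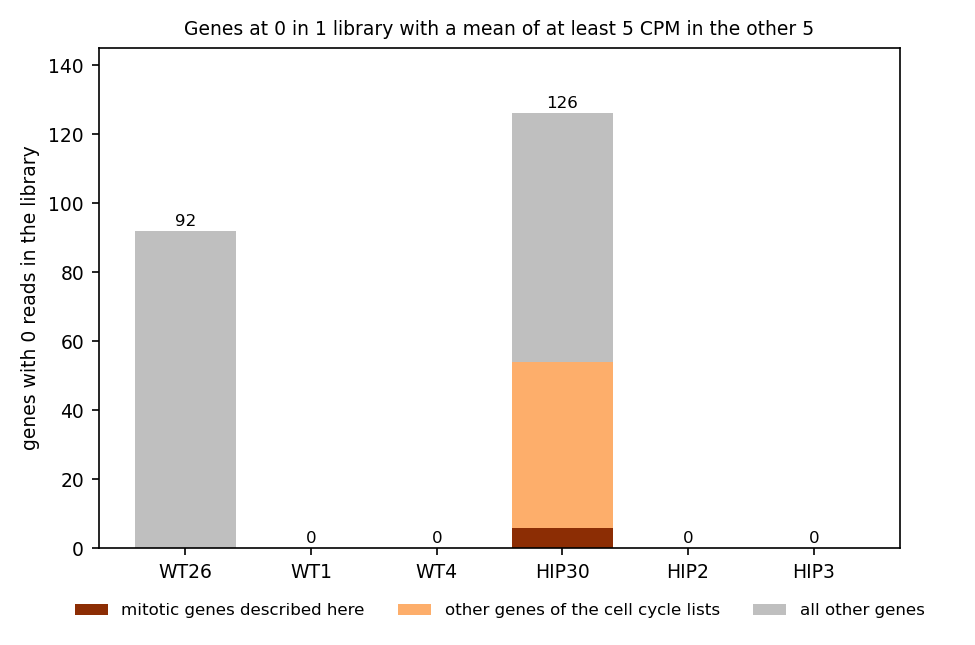
Number of genes with 0 reads in a library and an average of 5 CPM or more over the other 5, by library. HIP30 had 126, of which 6 are mitotic genes described here and 48 others of the cell cycle lists; WT26 had 92, with none of either kind.

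Markers of other cells were set beside the mitotic levels, and their part in the result was not tested. Macrophage and other myeloid markers, of which 11 to 12 of 12 had reads in each library, summed to 412 to 782 CPM in wild type and to 2445, 2465 and 623 CPM in HIP30, HIP2 and HIP3. Mpeg1, a pore-forming protein of macrophages, made up most of the 2 high values, at 1929 and 1945 CPM, and had no read in WT26. Cd14 ran from 215 CPM in HIP30 to 323 CPM in WT26. Csf1r and Cd68, which define the lineage, stood at 57.9 and 16.05 CPM in HIP30 and at 70.2 and 17.6 CPM in WT4. So the HIP libraries that were low in mitotic transcripts had the highest myeloid sums, through Mpeg1.

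Fibroblast markers ran the other way. All 12 were measured, 11 to 12 with reads in each library, and they summed to 1499 to 2264 CPM in wild type and to 463, 813 and 1827 CPM in HIP30, HIP2 and HIP3. Col1a1 and Col3a1, the main fibrillar collagens, stood at 40.97 and 125 CPM in HIP30 and at 628 and 609 CPM in HIP3. Fibroblast sums and mitotic levels were thus both lowest in HIP30 and next lowest in HIP2, but single markers differed. In HIP3, Dcn, Dpt, Lum, Thy1 and Serpinf1 lay below all wild-type libraries, unlike the mitotic genes. Dcn stood there at 123 CPM against 162 to 300 CPM in wild type. Col1a1, Mfap5 and Pi16 lay above the wild-type libraries in HIP3, and Col1a2, Col3a1, Pdgfra and Fbln1 lay among them. Dpt was lower in HIP2, at 83.6 CPM, than in HIP30, at 115 CPM. Markers other than Col1a1 and Col3a1 were named after their values were seen.

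Lymphocytes, which can divide in tissue, left few reads. The T and NK cell list summed to 10.5 to 43.1 CPM in wild type and 17.8 to 43.03 CPM in HIP, with reads for 6 to 12 of its 13 markers. Cd4 led the list, at 5.19, 10.5 and 19.03 CPM in wild type and 30.5, 22.8 and 6.68 CPM in HIP. Cd3g, a T cell receptor subunit, stood at 2.09, 1.23 and 4.56 CPM in wild type and 2.98, 1.40 and 6.80 CPM in HIP. The related Cd3e stayed at or below 2.55 CPM, and Cd3d was at 0 in WT26 and WT1 and at or below 1.40 CPM elsewhere. B and plasma cell markers, 5 to 9 of 10 with reads, summed to 15.6 to 90.3 CPM in wild type and to 275, 220.3 and 84.4 CPM in HIP30, HIP2 and HIP3, of which Pou2af1 made 266, 215 and 65.8 CPM. Ms4a1, a surface marker of B cells, stayed at or below 0.0611 CPM in each library.

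The sum of islet transcripts followed the order of the mitotic genes within HIP but not within wild type, and single markers differed. Islet markers summed to 12.3, 152 and 11666 CPM in wild type and to 367, 421 and 5221 CPM in HIP, with reads for 2 to 18 of 18. Ins1, an insulin gene, had no read in either WT26 or HIP30, and Mki67 stood at 788 CPM in the former and at 0 in the latter. Within HIP, Ins1 stood at 0, 102 and 3717 CPM, and Ins2 rose in the same order. Sst ran the other way, at 246, 172 and 10.2 CPM, as did Ghrl, Pyy and Ppy, while Chgb stayed between 26.2 and 28.6 CPM. Sst, Ghrl, Pyy, Ppy and Chgb were named after their values were seen. Acinar markers, 6 to 14 of 14 with reads, summed to 65.04 to 132 CPM in wild type and 63.1 to 165 CPM in HIP. The highest HIP sum was in HIP3. The defining enzymes Prss1 and Cpa1 were at 0 in WT26 and HIP30. Other acinar markers were read there, and HIP30 had reads for 7 of the 14. Gp2 and Cela1 stood at 30.1 and 23.6 CPM in HIP30 and at 30.6 and 35.3 CPM in WT26.

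Epithelial markers were present in all libraries. The duct and gland list, 14 to 15 of 15 with reads, summed to 13091 to 29677 CPM in wild type and 13807 to 15874 CPM in HIP, and its sum in HIP30, 14508 CPM, lay inside the wild-type range. Krt8, a simple epithelial keratin, ran from 1617 CPM in HIP30 to 8738 CPM in WT26. The list of stem and crypt markers, 10 to 11 of 11 with reads, summed to 3204 to 4428 CPM in wild type and 3337 to 4014 CPM in HIP. Within it Lgr5, a receptor of intestinal stem cells, stood at 105, 101 and 94.4 CPM in HIP against 32.7 to 97.8 CPM in wild type. Ascl2 and Axin2 were lower in HIP30, at 23.9 and 44.9 CPM, against 41.2 to 52.1 and 54.4 to 65.9 CPM in wild type. Lgr5, Ascl2 and Axin2 were named after their values were seen. Cd44, an adhesion receptor, was lowest in HIP30, at 1598 CPM, and Prom1, a surface marker of progenitors, highest there, at 1365 CPM. In HIP30, 6 of the 9 mitotic genes thus had no read while both epithelial sums lay in the wild-type range.

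Smooth muscle markers differed little in sum but had a median level in the mitotic order within HIP. Smooth muscle and pericyte markers, 11 to 12 of 12 with reads, summed to 598 to 752 CPM in wild type and 624 to 683 CPM in HIP, most of it from Notch3 and Mylk, at 218 and 298 CPM in HIP30. The median log2 level of these markers against the wild-type mean was nevertheless -1.32, -0.58 and -0.10 in HIP. Acta2, smooth muscle actin, stood at 0.97, 1.59 and 9.93 CPM in HIP against 6.82 to 11.8 CPM in wild type. Myh11, the smooth muscle myosin, stood at 4.25, 8.79 and 29.04 CPM against 19.5 to 24.99 CPM. Myl9, Lmod1, Rgs5, Pdgfrb and Cspg4 also rose from HIP30 to HIP2 to HIP3, whereas Mylk, Tagln, Des and Notch3 did not. Mylk fell in that order, at 298, 279 and 169 CPM against 17.5 to 193 CPM in wild type. Tagln stood at 3.46, 6.41 and 4.23 CPM in HIP, each below all wild-type libraries. Of these markers, all but Mylk and Notch3 were named after their values were seen. All 11 endothelial markers had reads and summed to 222 to 378 CPM in wild type and 216 to 329.6 CPM in HIP, led by Flt1 and Eng. Mast and erythroid markers, 3 to 9 of 9 with reads, summed to 111 to 149 CPM in wild type and 53.5 to 126 CPM in HIP, most of it Kit, at 43.8 CPM in HIP30 and 119.8 CPM in HIP3.

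**Figure D5:**
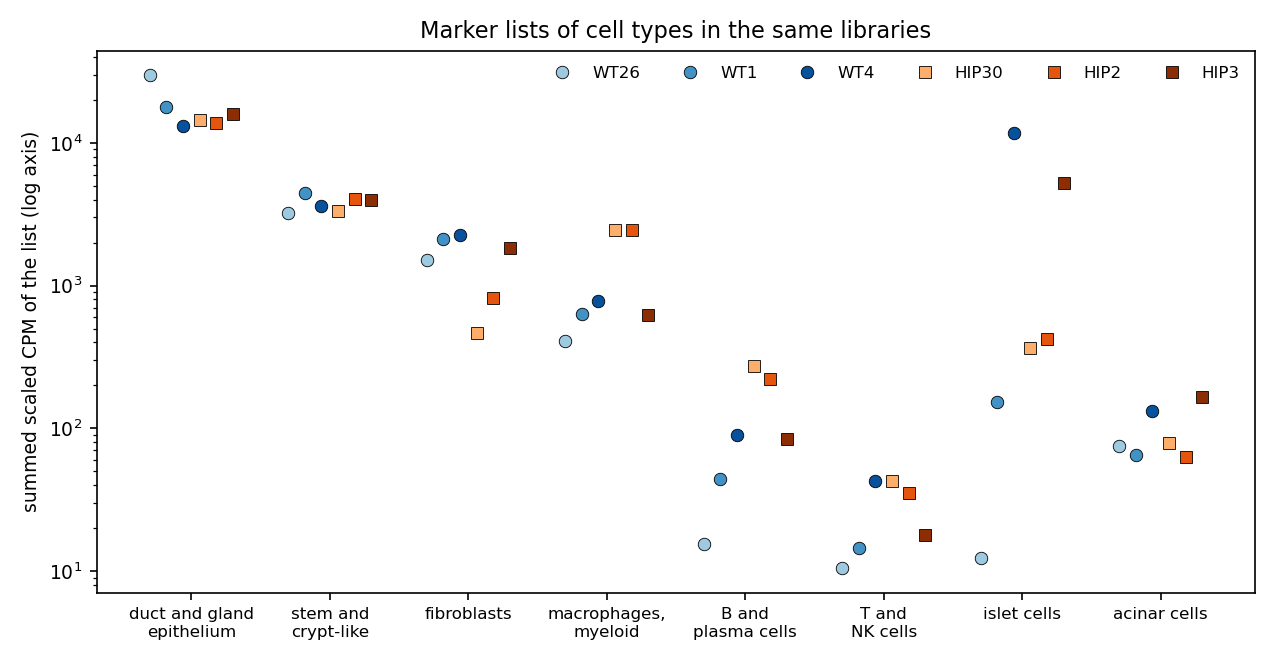
Summed scaled CPM of 8 marker lists in each library, on a log axis; circles are wild type and squares are HIP. Fibroblast sums are lowest in HIP30 (463 CPM) and HIP2 (813 CPM), myeloid sums highest there (2445 and 2465 CPM), and duct and gland sums in HIP lie between 13807 and 15874 CPM.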

How the data were processed

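RNA was sequenced from laser-captured glands in 3 wild-type and 3 HIP libraries. The authors deposited a log2 value for each of 15679 rows per library. STAR, HTSeq, edgeR, limma and build rn5 are named, without versions, per the submitters' processing notes; strandedness and filters are not given in the sources used here, so overlapping or near-identical genes could not be separated. The deposited log2 values are CPM with a small prior: a gene without reads stands at -6.04. Whole reads were recovered for 100% of entries within 0.1 reads. Of the rows, 4 with repeated symbols were left out, giving 15675.

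TMM factors (trims of 30% and 5%) lay between 0.933 and 1.09. The 12102 genes tested reached 0.61 CPM (10 reads in a library of median depth) in 3 libraries and 15 reads in all. They were fitted with limma 3.58.1 (intensity trend, R 4.3.3) on the log2 scale after adding 0.122 CPM (2 reads). The plan named a quasi-likelihood count test if the files held counts, which they do not. Promoter sequences are from RefSeq (GRCr8).

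The members and lists were chosen with earlier results of these data known. Named were the 9 genes, the 3 genes of each cell cycle list and 2 of each marker list with the highest mean level, the defining markers, and the 8 nearest profiles; others are marked as named after their values were seen. Some genes that this rule names are not reported here. Alternatives covered scaling, pseudocount, filters, limma-voom, the number series (26 and 30 against 1 to 4) and each library left out. Figures used matplotlib 3.10.9.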

Additional observations from a re-analysis of the deposited data

How the results depend on the processing

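No gene was called under any of the 13 alternative fits. The median log2 difference of the 9 genes, -3.29, ran from -4.94 without HIP3 to -1.07 without HIP30 with libraries left out in turn, and from -3.97 to -2.61 over the other settings, with limma-voom at the low end and a pseudocount of 8 reads at the high end. All 9 differences stayed negative in every fit, and no list median turned sign; without HIP30 the list medians ran from -1.24 to -0.07. The smallest adjusted p of limma, 0.691, went to 0.0871 without HIP3 and 0.288 without WT4, and the count at an unadjusted p under 0.05 from 792 to 1804 and 1605, against 235 to 338 with any other library left out. The number of genes at 0 in HIP30 was 240 at a mean of at least 1 CPM and 67 at 20 CPM, and in WT26 304 and 35. With the number series (WT26 and HIP30 against the rest) as a term, limma called 0 genes, with 962 at an unadjusted p under 0.05 and a smallest adjusted p of 0.565. No paired analysis was possible because the groups share no replicate number. With 6 libraries the contrast rests on the spread among 3 HIP values, and reads without molecular identifiers give counting limits only.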
